A study of Mus musculus with 2 samples.

Results

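The genes described here are 9 genes of antibodies and antibody-secreting cells, taken by symbol from the 31053 genes counted in both libraries. They are the kappa light chain constant gene Igkc, the lambda constant genes Iglc1, Iglc2 and Iglc3, the heavy chain constant genes Ighm, Ighd and Igha, the joining chain gene Jchain, and Mzb1, a chaperone of the endoplasmic reticulum in B and plasma cells. All 9 were found once in the gene list and all 9 had UMIs (unique molecular identifiers, counted as RNA molecules) in both libraries. Single-cell RNA sequencing was performed on dissociated aortic arches of male C57BL/6 mice lacking Apoe, aged 16 weeks, with a normal diet (ND, the control) or a diet high in fat and cholesterol (HFD). Both groups carried the Apoe deletion, which raises blood lipids and makes mice prone to atherosclerosis. Each diet was 1 library from 2 pooled aortas, so the diets were compared without a test, and every interval covers counting error only.

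Among 10234 deposited barcodes in ND and 14225 in HFD, 5416 and 2739 were kept, with a median of 3732.5 and 5336 UMIs. Cells were assigned by gates, each requiring at least 3 UMIs over at least 2 of 5 marker genes of a cell type, and none of the 9 genes was a marker. Endothelial cells were 40.2% of ND and 40.7% of HFD barcodes, fibroblasts 18.0% and 15.5%, macrophages 6.33% and 17.4%, and T cells 5.08% and 1.17%. A gate for airway epithelium held 54 ND barcodes and 0 HFD barcodes (upper bound 0.135%), and Scgb1a1, a secretory protein of the airway, had 272133 UMIs in ND against 7 in HFD outside the immunoglobulin-rich barcodes defined below. The labels name only aorta as the tissue, so the ND library held RNA of a tissue the labels do not name. The libraries shared 39 deposited barcodes, of which 1 was kept in both.

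An antibody is built of heavy and light chains. A B cell joins variable segments to a constant gene, and normally expresses a single light chain type, kappa or lambda. Naive B cells make IgM and IgD from Ighm and Ighd by alternative RNA processing, and switching replaces these by IgG, IgE or IgA. A plasma cell secretes antibody, loses much of the B cell surface receptor programme and enlarges the endoplasmic reticulum. Jchain links IgM and IgA into polymers. B-1 cells, an innate-like B cell type of body cavities and the perivascular fat, produce natural IgM, and B cells occur in the fat and lymph nodes around the aorta as well as in its wall.

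Of the lambda constant genes, Iglc2 and Iglc3 are close copies and Iglc1 is less alike. The bases that tell the 3 genes apart matter for reading their counts. The last 90 coding bases of each are printed with the positions that differ among the 3 genes in capitals. They lie on chromosome 16, minus strand, in the constant region exon of each gene on GRCm38 (GENCODE M21), at chr16:19061755-19061844 for Iglc1, chr16:19198539-19198628 for Iglc2 and chr16:19065368-19065457 for Iglc3.
Iglc1: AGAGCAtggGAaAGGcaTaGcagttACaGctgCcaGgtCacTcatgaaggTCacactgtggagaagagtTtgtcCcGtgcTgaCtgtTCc
Iglc2: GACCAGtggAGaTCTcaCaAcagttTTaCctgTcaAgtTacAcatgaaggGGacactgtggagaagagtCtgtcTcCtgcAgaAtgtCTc
Iglc3: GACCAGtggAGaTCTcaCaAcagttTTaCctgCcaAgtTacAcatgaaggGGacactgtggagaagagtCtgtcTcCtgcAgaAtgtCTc
Iglc1 differed from Iglc2 at 29 and from Iglc3 at 28 of these 90 bases, whereas Iglc2 and Iglc3 differed at 1. Over the whole coding part, Iglc2 and Iglc3 were 96.2% identical, and Iglc1 was 73.8% identical to Iglc2 and 74.8% to Iglc3. Reads of Iglc2 and Iglc3 may therefore be split between them, and their separate counts are uncertain, while those of Iglc1 are better separated.

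A small number of barcodes carried most immunoglobulin RNA of both libraries. Of the UMIs of all kept barcodes, 0.501% in ND and 0.385% in HFD fell on the 392 immunoglobulin constant, variable and joining genes. Barcodes with at least 5% of their own UMIs on these genes, called immunoglobulin-rich, were 29 in ND (0.535%, exact binomial interval 0.359 to 0.768%) and 15 in HFD (0.548%, 0.307 to 0.902%). They held 82.2% of all Igkc UMIs in ND and 98.5% in HFD. No barcode lay near the limit, since the lowest inside it had 7.24% in ND and 13.98% in HFD, and the highest outside had 3.01% and 2.14%. The share reached 65.4% in both libraries, with a median of 40.7% in ND and 52.4% in HFD. Because immunoglobulin counts chose these barcodes, their immunoglobulin levels are a description. Jchain and Mzb1 were not used to choose them.

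Of the 29 ND immunoglobulin-rich barcodes, 18 fell in the B gate, 4 passed several gates, 4 passed none, 2 fell in the fibroblast gate and 1 in the endothelial gate. The 15 in HFD were 6 in the B gate, 7 in none and 2 in several. A UMI of Ms4a1, which encodes CD20, was found in 5 of 29 ND and 0 of 15 HFD barcodes, and one of Pax5, the B cell identity factor, in 1 and 0. In all that follows, B cells are those in the B gate without the immunoglobulin-rich barcodes, 496 in ND and 6 in HFD, unless said otherwise.

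**Figure D1:**
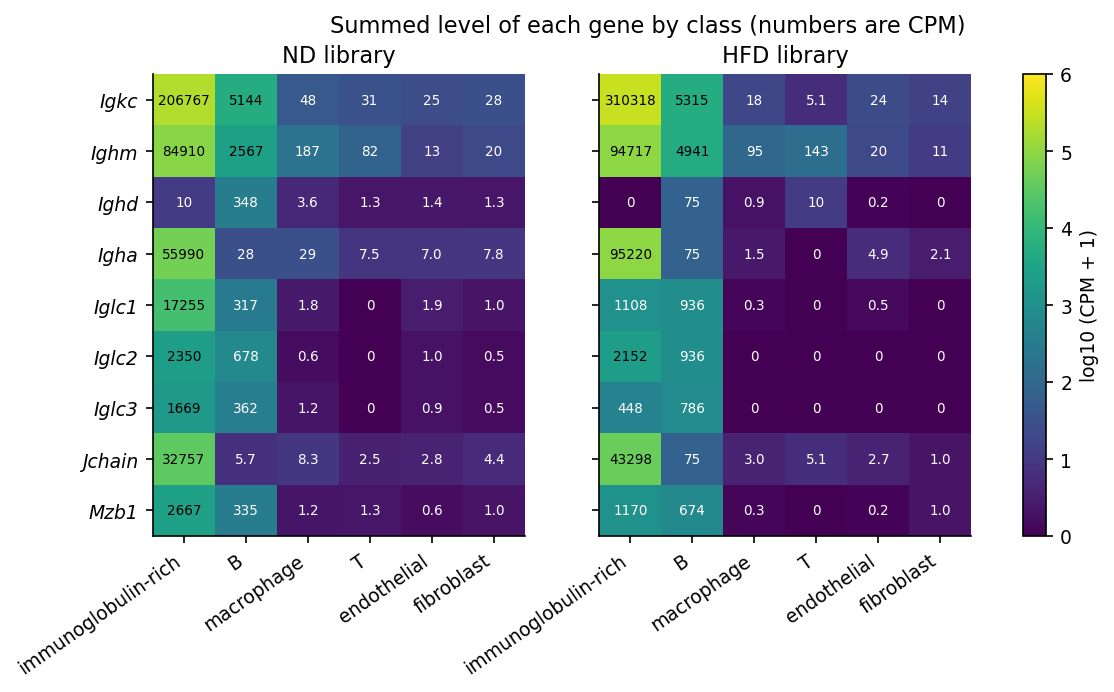
Level of each of the 9 genes in UMIs per 1000000 (CPM, printed in each cell and coloured on a log10 scale with 1 added) by cell class, ND library left and HFD library right. All classes but the first leave out immunoglobulin-rich barcodes, and Igkc falls from 206767 CPM in those of ND to 5144 in B cells and 24.7 in endothelial cells.

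In ND, the levels of Igkc, Ighm, Iglc1, Iglc2, Iglc3 and Mzb1 fell from immunoglobulin-rich barcodes to B cells to other cells. In HFD, Iglc3 was lower in immunoglobulin-rich barcodes than in the 6 B cells (448 against 786 CPM), and Iglc1 was at 1108 against 936 CPM, a log2 ratio of 0.24 (-0.38 to 0.92). For Igkc, the summed level was 206767 CPM in the ND immunoglobulin-rich barcodes, 5144 in B cells, 47.6 in macrophages, 31.4 in T cells and 24.7 in endothelial cells. In HFD it was 310318 CPM in immunoglobulin-rich barcodes and 5315 in B cells, followed by endothelial cells (23.6), macrophages (18.3) and T cells (5.11, from 1 UMI). A single endothelial cell held 80 of the 155 Igkc UMIs there, and without it the endothelial level was 11.5 CPM. For Ighd the order was different, with 348 CPM in ND B cells and 10.1 in immunoglobulin-rich barcodes, where only 3 UMIs were counted. Igha, in contrast, had 55990 CPM in the ND immunoglobulin-rich barcodes and 28.3 in B cells, against 28.5 CPM in macrophages, where 29 of 48 UMIs lay in 1 cell and the level without it was 11.3 CPM. Jchain had 32757 CPM in these barcodes and 5.67 in B cells (11 UMIs), near the 2.84 CPM of endothelial cells. Mzb1 was 2667 CPM in the immunoglobulin-rich barcodes, 335 in B cells and 0.608 in endothelial cells.

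Between B and endothelial cells of the ND library, 8 of the 9 genes were at least 2-fold higher in B cells, where 13.5% of the 11767 genes with at least 20 UMIs over both sums were. The exception was Jchain, at a log2 ratio of 0.999 (-0.16 to 2.05). Igkc was higher by 7.70 on the log2 scale (7.52 to 7.89), and by 6.86 with the immunoglobulin-rich barcodes left in both gates. Ighm was higher by 7.68 (7.42 to 7.94), Ighd by 7.94 (7.18 to 8.82) and Mzb1 by 9.11 (7.98 to 10.56). Igha was 2.02 higher (1.48 to 2.55). Of the B cell receptor genes, 18 of 19 were at least 2-fold higher, among them Cd79a at 2036 against 3.34 CPM and Ms4a1 at 1129 against 0.203 CPM, and both were markers of the gate.

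Each immunoglobulin-rich barcode was dominated by 1 heavy chain and 1 light chain. In ND, 19 of 29 barcodes had Ighm as the main heavy chain, 9 had Igha and 1 had Ighg3, the IgG3 constant gene. In HFD, 8 of 15 had Ighm, 6 Igha and 1 Ighg2c, the IgG2c gene. The main heavy chain took at least 97.0% of the heavy chain UMIs in every ND barcode and at least 97.4% in every HFD barcode. Its UMIs ranged from 153 to 3647 per ND barcode (median 1355) and from 37 to 3533 per HFD barcode (median 1577). The barcode with 37 Ighg2c UMIs was also the shallowest, with 2056 UMIs in all, 815 of Igkc, 27 of Jchain and 0 of Mzb1.

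The light chain was kappa in 27 of 29 ND and in 15 of 15 HFD barcodes. Igkc reached 4854 UMIs in 1 ND barcode (median 2144) and 5761 in 1 HFD barcode (median 2171). Both lambda barcodes were IgA barcodes of ND. One had 4120 UMIs of Iglc1, 323 of Iglc3, 10 of Iglc2 and 0 of Igkc beside 3647 of Igha, and the other had 796 of Iglc1, 136 of Igkc and 685 of Igha. Of the library's 5863 Iglc1 UMIs in kept barcodes, most thus lay in these barcodes, and the HFD library, which had no lambda barcode, had 191. In the kappa barcodes the few lambda UMIs were mostly Iglc2, which made up 66.3% of 1033 lambda UMIs in ND and 58.1% of 472 in HFD.

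Jchain was present in every immunoglobulin-rich barcode, with 27 to 1008 UMIs in ND (median 294) and 27 to 1376 in HFD (median 308). IgM barcodes had a median of 294 in ND and 190.5 in HFD, and IgA barcodes 308 and 401. These ranges overlapped widely, and the single IgG3 barcode had 163. Mzb1 ranged from 1 to 103 UMIs in ND (median 19) and from 0 to 28 in HFD (median 7), so the upper part of the ND range was empty in HFD. Both are summed levels of few barcodes, and the Mzb1 level was 2667 CPM in ND and 1170 CPM in HFD, a log2 difference of -1.19 (-1.45 to -0.93).

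**Figure D2:**
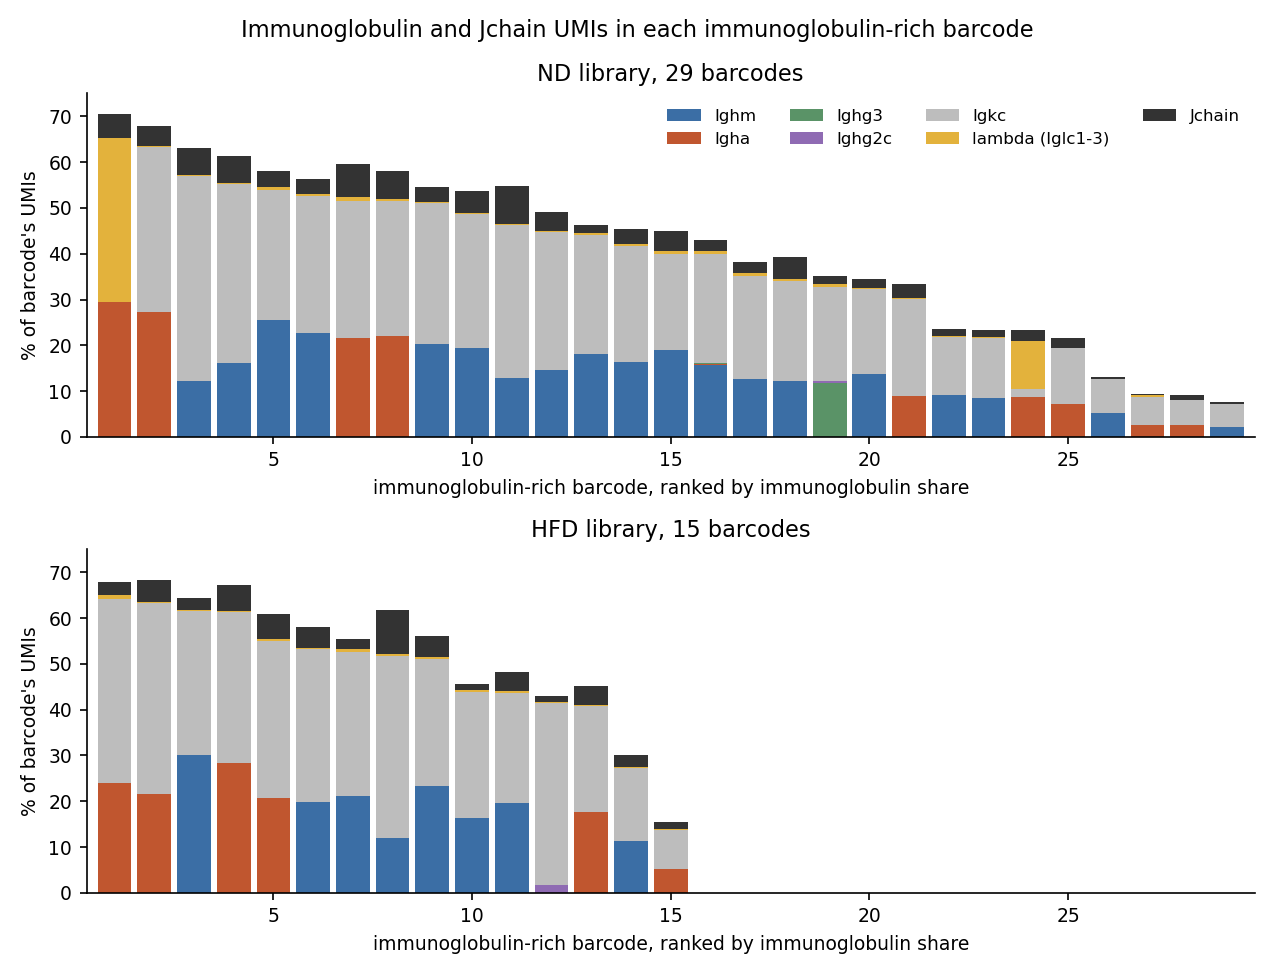
Percent of each immunoglobulin-rich barcode's UMIs (bars, stacked) on the heavy chain genes, the kappa gene, the lambda genes and Jchain, with barcodes ranked by their immunoglobulin share, ND above (29 barcodes) and HFD below (15 barcodes). Each bar has 1 main heavy chain colour, Ighm in 19 ND and 8 HFD barcodes and Igha in 9 and 6. Lambda is the main light chain in 2 ND barcodes.

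Genes of plasma cells and of protein secretion were high in the same barcodes. Of a list of 15 such genes, 14 had at least 20 UMIs over ND immunoglobulin-rich barcodes and B cells, and 13 of these were at least 2-fold higher in the former, where 8.14% of all 7079 genes were. In HFD it was 9 of 9, where 20.4% of 401 genes were. The HFD B cells held only 26715 UMIs in all, against 127305 in the immunoglobulin-rich barcodes. A gene could thus reach 20 UMIs through the latter alone, as Derl3 did with 32 against 0 UMIs. The HFD count is therefore a description. Xbp1, the transcription factor of the secretory programme, had 1082 CPM in the ND immunoglobulin-rich barcodes against 48.4 in B cells, and a UMI was found in 28 of 29 and 76 of 496. Hsp90b1, a chaperone of the endoplasmic reticulum, was higher by 3.13 on the log2 scale (2.98 to 3.27), Ssr4, of the translocon, by 3.03 (2.81 to 3.25), and Sec11c, of the signal peptidase, by 2.73 (2.48 to 2.98). Irf4, which acts both in activated B cells and in plasma cells, was the exception, at 202 against 119 CPM.

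The check for plasma cells used 5 genes that no gate used, Sdc1 (CD138), Tnfrsf17 (BCMA), Derl3, Prdm1 (Blimp-1) and Eaf2. At least 3 UMIs over at least 2 of them were found in 28 of 29 ND and 12 of 15 HFD immunoglobulin-rich barcodes, but in 3 of 496 ND and 0 of 6 HFD B cells (upper bound 45.9%). Among endothelial cells outside these barcodes it was 1 of 2175 in ND and 0 of 1115 in HFD (upper bound 0.330%). In macrophages it was 0 of 343 in ND and 4 of 477 in HFD (0.839%). Barcodes passing several gates, also outside the immunoglobulin-rich ones, had 12 of 731 in ND (1.64%) and 2 of 474 in HFD (0.422%). The immunoglobulin-rich barcodes were deeper than B cells. Their median depth was 9455 UMIs in ND and 7869 in HFD, against 3391 and 4073 in B cells, and the part of depth in these shares was not tested. Tnfrsf17, the receptor for survival factors of plasma cells, had 18 UMIs in 12 ND barcodes and 0 in the 496 ND B cells.

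None of 19 B cell receptor genes was 2-fold higher in the ND immunoglobulin-rich barcodes than in B cells, where 8.14% of all genes were. Their median log2 ratio was -2.75, and that of all genes -0.66. Pou2af1, a coactivator of immunoglobulin genes, was at 266 CPM in both, and Blnk, an adaptor of the receptor, at 131 against 151 CPM, a log2 ratio of -0.20 (-0.72 to 0.29). Cd79a was lower by 2.39 on the log2 scale (2.13 to 2.67 lower), at 388 against 2036 CPM. Ms4a1 had 37.1 against 1129 CPM and Ebf1, an early B cell factor, 33.7 against 825 CPM. Of the genes of mature B cells, Fcer2a (CD23) had 1 UMI and Cr2 (CD21) 0 UMIs over the 29 barcodes, against 342 and 295 in B cells.

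The variable genes named next were chosen after their values had been seen, because they recurred as the main variable gene of several immunoglobulin-rich barcodes. A main variable gene was called with at least 2 UMIs and over 2 times the next. This gave a kappa variable gene for 17 of 29 ND and 12 of 15 HFD barcodes, and a heavy one for 9 and 3. Ighv11-2 and Igkv14-126 came together in 3 ND barcodes, all IgM, with 2 to 8 and 3 to 4 UMIs. This pair is known from B-1 cell antibodies against phosphatidylcholine. Igkv17-121 was the main kappa gene of 4 HFD barcodes, all IgM, with 2 to 11 UMIs, and Igkv4-72 of 3 ND barcodes, all IgA, with 2 to 8.
The germline ends of these genes on GRCm38 (GENCODE M21) show what such a count refers to, with the last in-frame cysteine codon in capitals. The joint to the next segment comes at the end of the printed bases.
Ighv11-2, chr12:114048241-114048281, minus strand: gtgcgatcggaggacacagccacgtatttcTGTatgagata
Igkv14-126, chr6:67896587-67896642, plus strand: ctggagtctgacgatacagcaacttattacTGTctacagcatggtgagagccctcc
Igkv17-121, chr6:68037263-68037318, plus strand: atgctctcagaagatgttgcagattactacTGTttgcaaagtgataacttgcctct
Igkv4-72, chr6:69226854-69226911, minus strand: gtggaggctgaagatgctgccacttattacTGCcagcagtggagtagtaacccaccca

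Each of these genes had few UMIs beside the Igkc counts, and the junction itself is not in the counts, so whether barcodes that share a gene share a clone was not tested. Outside the immunoglobulin-rich barcodes, Igkv17-121 had no further UMI in HFD and 1 in ND, in a B cell. Recurrent genes were not all of 1 diet. Igkv5-39 was the main kappa gene of 2 ND barcodes and 1 HFD barcode, all IgM, while Igkv1-110 was that of 3 HFD barcodes, 2 IgM and 1 IgA, and Igkv14-111 that of 3 ND barcodes, all IgM. Iglv1 had 127 UMIs in 19 of the 29 ND barcodes, of which 43 lay in 1 kappa barcode, with 4263 Igkc UMIs, and 5 in each lambda barcode.

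B cells of the ND library were mostly unswitched by their heavy chain RNA. Igkc had a median of 15 UMIs per cell (quartiles 9 and 26, highest 114), Ighm 8 (4 and 14, highest 68) and Ighd 1 (0 and 2, highest 10). A UMI of Ighm was found in 466 of 496 cells (93.95%, 91.5 to 95.9%), and one of Ighd in 297, of which 296 also had Ighm. The 6 HFD B cells all had Ighm, with 9, 31, 14, 13, 38 and 27 UMIs, and Igkc with 0, 35, 16, 21, 64 and 6. In each cell, Ighm of HFD was above the ND median, and 2 of the 6 had an Ighd UMI. Such a number of cells leaves the HFD share with Ighd between 4.33 and 77.7%.

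Switched heavy chains were rare in B cells. At least 3 UMIs of Igha, IgG or IgE genes were found in 32 of 496 ND cells (6.45%, 4.45 to 8.99%), and 29 cells had more of them than of Ighm and Ighd. Ighg2b had 79 UMIs in 17 cells, Igha 55 in 18, Ighg1 39 in 11, Ighg3 39 in 21, Ighg2c 15 in 7 and Ighe 2 in 2. Jchain was counted in 9 and Mzb1 in 292 of the 496 cells. Bcl6, the germinal centre factor, had 42 UMIs. Variable genes were barely counted, with 29 Igkv UMIs and 5 Ighv UMIs beside 9987 of Igkc. Igkv12-44 and Igkv6-15 led with 4 UMIs each, Iglv1 and Iglv3 had 3 each, and no Ighv gene had more than 1.

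The Ighd count split these cells along other genes. This split was made after the values had been seen. The 199 cells without an Ighd UMI and the 177 with at least 2 had medians of 3586 and 3173 UMIs. Igkc did not separate them, at 5249 and 5127 CPM. Ighm was at 2680 CPM without Ighd and 2314 with it. The lambda genes were higher without it, with Iglc1 at 381 against 241 CPM, Iglc2 at 744 against 487 and Iglc3 at 398 against 321. So were switched genes, with Ighg1 at 45.4 against 1.57 CPM, Ighg2b at 83.7 against 11.0 and Igha at 56.2 against 9.45. Switching replaces Ighd, so the difference in switched genes follows in part from the split itself. Fcer2a, a marker of follicular B cells, had 111 CPM without Ighd and 252 with it, a log2 ratio of -1.18 (-1.56 to -0.80), and Cr2 124 and 214 CPM. Cd9 and Zbtb32, found in innate-like and activated B cells, were higher without Ighd, at 64.6 against 26.8 and 61.0 against 26.8 CPM. Mzb1 was higher as well, at 372 against 268 CPM.

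Most B cells had more kappa than lambda RNA. Kappa led in 446 of 496 ND cells (89.9%, 86.9 to 92.4%), lambda in 47 (9.48%, 7.05 to 12.4%), and 3 had as much of each. In HFD, kappa led in 5 of 6 cells. The lambda genes held 20.9% of the light chain UMIs of the ND cells, and 9.33% in the ND and 1.18% in the HFD immunoglobulin-rich barcodes. With the latter left in the ND B gate, lambda was 13.8%.

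Many kappa cells also had lambda UMIs. Of the 446 ND cells led by kappa, 354 (79.4%, 75.3 to 83.0%) had at least 1, and lambda made up 14.5% of their light chain UMIs. By gene, Iglc2 was found in 59.9% of them, Iglc3 in 56.1% and Iglc1 in 30.3%. Endothelial cells of the same library and of nearly the same median depth (3390 against 3391 UMIs) had these in 0.368%, 0.322% and 0.874%, so the shares in kappa cells were above those in cells that should lack these genes. Of the 47 cells led by lambda, 42 had UMIs of at least 2 of the 3 genes and 17 of all 3. The parts of free RNA of lambda cells, of B cell doublets and of both chains in a cell in the lambda UMIs of kappa cells were not tested.

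**Figure D3:**
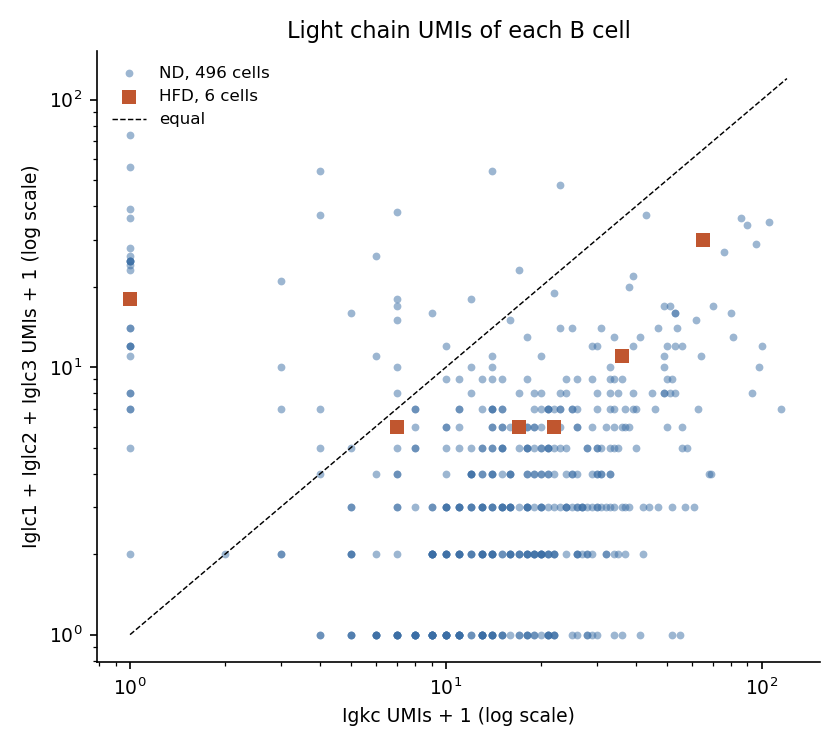
Igkc UMIs (x axis) against the sum of Iglc1, Iglc2 and Iglc3 UMIs (y axis) of each B cell, with 1 added and both axes on a log scale, for 496 ND cells (circles) and 6 HFD cells (squares), immunoglobulin-rich barcodes left out. Of the ND cells, 446 lie below the dashed line of equal counts and 47 above it, and most cells led by kappa have lambda UMIs as well.

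Outside B cells, Igkc was low and similar among cell types, none of which makes antibody. A UMI of Igkc was found in 8.23% of ND endothelial cells (7.11 to 9.46%), 6.17% of fibroblasts, 6.91% of T cells and 9.04% of macrophages, and in HFD in 6.10%, 5.18%, 3.13% and 6.92%. The intervals of these types overlapped in each library. Most such cells had 1 UMI, as in 156 of 179 ND endothelial cells with any, although 1 HFD endothelial cell alone held 80 of 155 UMIs. A single immunoglobulin-rich barcode in the ND endothelial gate, with 1685 Igkc UMIs, raised the summed level of that gate from 24.7 to 195 CPM. The log2 ratio of HFD over ND in endothelial cells was -3.05 with that barcode, -0.06 without it, and -1.11 when the HFD cell with 80 UMIs was left out as well, so single barcodes set this value.

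Ighm did not follow the same pattern. It was found in 53.4% of ND macrophages (47.9 to 58.7%) and 36.3% of HFD macrophages (31.9 to 40.8%), against 4.37% (3.55 to 5.31%) and 4.04% (2.96 to 5.36%) of endothelial cells. Since macrophages were deeper, with medians of 4385 and 5763 UMIs against 3390 and 5239, all cells were also thinned to 1000 UMIs, leaving out 2 ND macrophages and 7 ND endothelial cells as too shallow. The shares were then 18.8% and 11.1% of macrophages against 1.15% and 0.717% of endothelial cells. The level was 187 against 12.6 CPM in ND, a log2 ratio of 3.89 (3.59 to 4.21), and 95.3 against 19.98 CPM in HFD, a log2 ratio of 2.25 (1.95 to 2.56). One HFD endothelial cell held 75 of the 131 Ighm UMIs, and without it the endothelial level was 8.55 CPM and the ratio 3.48 (3.06 to 3.92). In T cells Ighm was found in 16.4% (ND) and 31.3% (HFD) of cells, and in 7.30% and 6.25% after thinning, with medians of 2569 and 5220 UMIs before it.

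The ratio of both genes set these cells apart from B cells. Per Igkc UMI there were 0.499 Ighm UMIs in ND B cells (0.482 to 0.516) and 0.508 in endothelial cells (0.406 to 0.633), but 3.93 in macrophages (3.06 to 5.08) and 2.60 in T cells (1.62 to 4.30). HFD macrophages had 5.22 (3.95 to 6.997), against 0.930 (0.728 to 1.19) in the 6 HFD B cells. HFD T cells had 28 Ighm UMIs, 11 of them in 1 cell, and 1 Igkc UMI. One cell held 29 of the 80 Igkc UMIs of ND macrophages and another 25 of the 60 of HFD macrophages. Of 183 ND macrophages with Ighm, 164 had no Igkc. Per 100 UMIs of Ighm there were 1.91 of Ighd in ND macrophages and 13.5 in ND B cells. In HFD they were closer, at 0.958 in macrophages and 1.52 in B cells, from 3 and 2 Ighd UMIs. Among barcodes outside the B gate, a split chosen after the values had been seen gave Ighm in 31.2% of ND cells with a UMI of Ptprc, the common leukocyte antigen, and in 5.84% of those without, and in 32.8% and 5.53% in HFD. Which part of Ighm these reads came from is not in the counts, and no cause was tested.

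Of the 6 genes tested between ND macrophages and endothelial cells, 4 were at least 2-fold higher in macrophages (Ighm, Ighd, Igha and Jchain), where 14.9% of all 11813 genes were, and Igkc was 1.92-fold higher. A single macrophage held 29 of 80 Igkc, 29 of 48 Igha and 7 of 14 Jchain UMIs. Without it the log2 ratios were 0.30 for Igkc, 0.70 for Igha and 0.56 for Jchain, all under 2-fold, and that of Ighm was 3.87 without the macrophage that had the most of it. Ighd had 6 and 14 UMIs there, a log2 ratio of 1.33 (-0.34 to 2.80). Of the B cell receptor genes, 10 of 12 tested were at least 2-fold higher in macrophages as well, among them the B gate marker Cd79b but not Cd79a. Igha had 28.5 against 6.99 CPM in ND, but 1.52 against 4.88 in HFD. Of 10 receptors for antibodies, 6 could be tested between ND macrophages and endothelial cells, and all 6 were at least 2-fold higher in macrophages. Pigr, Fcmr, Fcer2a and Fcamr had under 20 UMIs over both sums. Between B and endothelial cells of ND, 3 of 6 tested were at least 2-fold higher in B cells, where 13.5% of all genes were. These were Fcgr2b, Fcmr and Fcer2a. Between diets, within macrophages, Fcer1g, the shared signalling chain, had 1852 CPM in ND and 2149 in HFD, Fcgr2b, the inhibitory receptor, 524 and 550.5 CPM, Fcgr3, an activating receptor, 419 and 399, and Fcgrt, the neonatal receptor that recycles IgG, 481 and 428. Fcgr4, an activating receptor named after its values had been seen, had 83.2 and 174 CPM, a log2 ratio of 1.07 (0.80 to 1.34). Fcgr1 had 108 and 142 CPM. How many of all genes passed 2-fold between diets in macrophages was not counted.

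**Figure D4:**
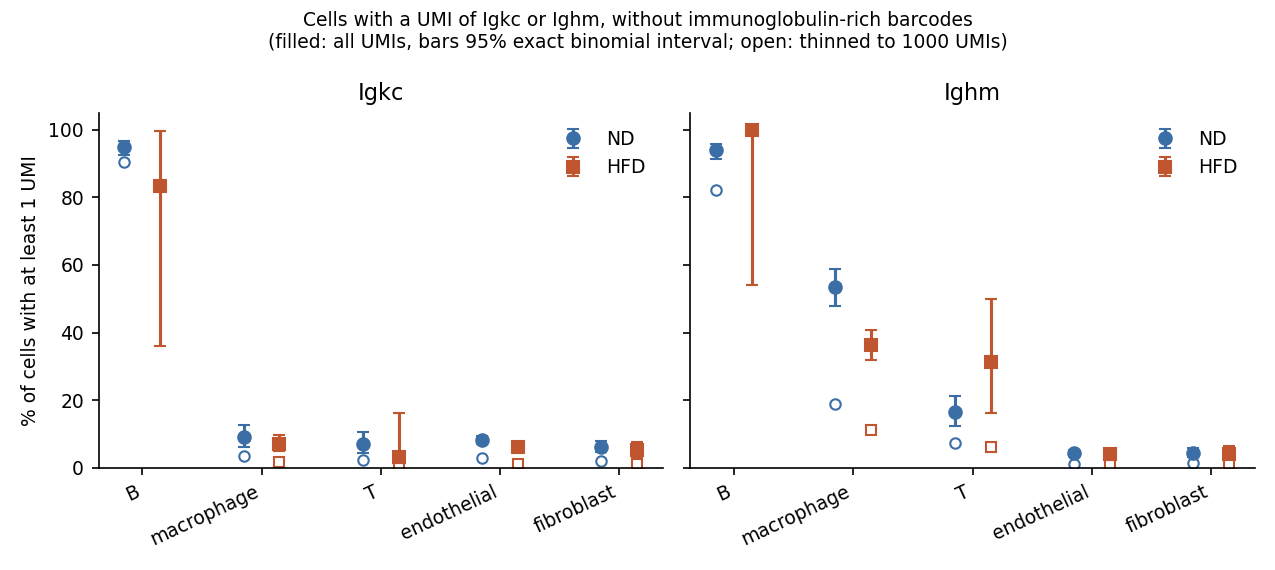
Percent of cells with at least 1 UMI of Igkc (left) and Ighm (right) by gate, for ND (circles) and HFD (squares), immunoglobulin-rich barcodes left out. Filled points with bars are all UMIs with the exact 95% binomial interval and open points are cells thinned to 1000 UMIs, and macrophages stand above endothelial cells for Ighm (53.4% against 4.37% in ND) but not for Igkc (9.04% against 8.23%).

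The B gate held 514 of 5416 ND barcodes (9.49%, 8.72 to 10.3%) and 12 of 2739 in HFD (0.438%, 0.227 to 0.764%). Without the immunoglobulin-rich barcodes it was 496 (9.16%, 8.40 to 9.96%) and 6 (0.219%, 0.0804 to 0.476%). The share of immunoglobulin-rich barcodes was 0.535% and 0.548%, with intervals that overlapped. T cells were also a smaller share in HFD, and the airway gate was empty in HFD, so B cells, T cells and airway cells were all a larger share in ND. The part of tissue outside the vessel wall in this difference was not tested, and diet and library cannot be told apart.

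The share of B cells depended on the limit for mitochondrial UMIs, whose median share in kept barcodes was 16.8% in ND and 21.9% in HFD. At most 10% left 846 ND and 112 HFD barcodes, with 11 (1.30%, 0.651 to 2.31%) and 0 (upper bound 3.24%) B cells, whose intervals overlapped. At most 20%, a limit added after the values had been seen, left 254 (7.19%) and 0 (upper bound 0.344%). With no limit there were 577 of 7715 (7.48%) and 76 of 9954 (0.764%). Of the 29 ND immunoglobulin-rich barcodes, 22 passed the limit of 10%, as did 2 of the 15 in HFD.

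**Figure D5:**
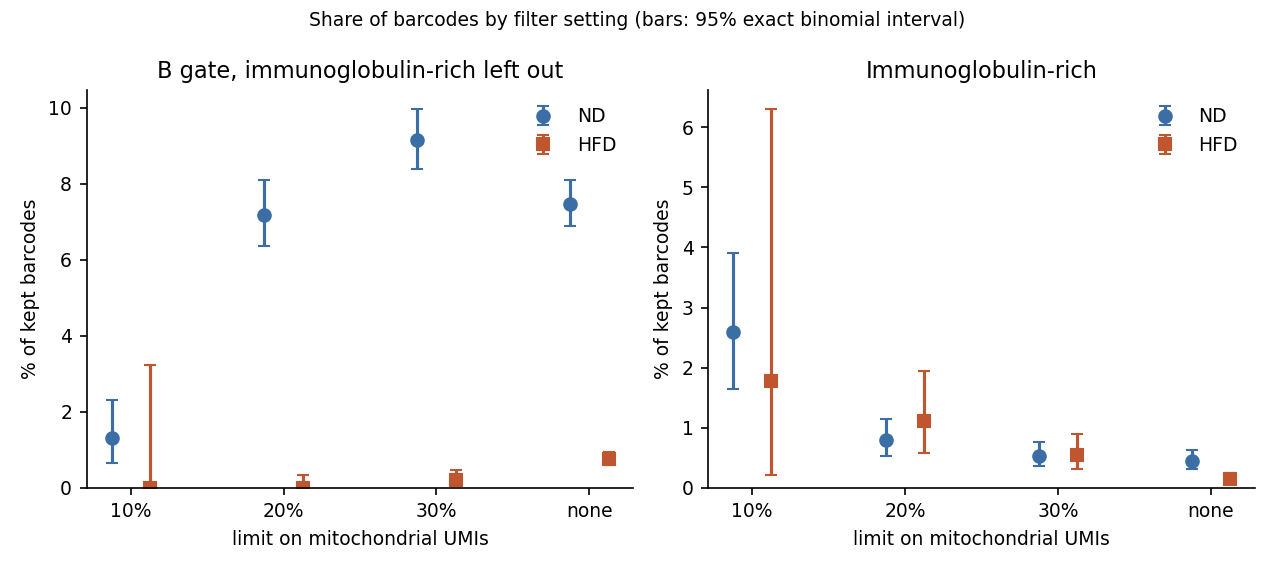
Percent of kept barcodes (y axes) that were B cells (left) or immunoglobulin-rich (right) under 4 limits on mitochondrial UMIs (x axis), for ND (circles) and HFD (squares), with exact 95% binomial intervals as bars. B cells were a larger share in ND at 20%, 30% and without a limit, while the intervals of both libraries overlapped at 10% and, for immunoglobulin-rich barcodes, at each limit but none.

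Summed over all kept cells, 5 of the 9 genes were at least 2-fold lower in HFD, where 12.4% of all 15101 genes were. These were Ighd, at 31.7 CPM in ND and 1.98 in HFD, Iglc1 at 216 and 11.1, Iglc2 at 85.3 and 18.8, Iglc3 at 50.1 and 5.76, and Mzb1 at 60.4 and 10.4. The other 4 genes did not pass that limit. Igkc had 2749 CPM in ND and 2334 in HFD, Ighm 1193 and 753, Igha 622 and 708, and Jchain 362 and 323. The sign for Igkc depended on the filter, with a log2 ratio of -0.24 at the limit of 30% mitochondrial UMIs and 0.26 at 20%. Without the immunoglobulin-rich barcodes, the log2 ratios of HFD over ND lay between -4.39 (Iglc2) and -1.02 (Jchain). Igkc was then at 495 and 36.0 CPM, Ighm at 268 and 52.3 and Jchain at 4.40 and 2.17. With these barcodes in the sums, 11 of 19 B cell receptor genes were at least 2-fold lower in HFD. Of the plasma cell and secretory list, 2 of 15 were.

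Within B cells, the comparison of diets rested on 6 HFD cells. Igkc had 5144 CPM in ND and 5315 in HFD, a log2 ratio of 0.05 (-0.20 to 0.29). Ighm had 2567 and 4941 CPM, higher by 0.94 (0.68 to 1.19), and Mzb1 335 and 674, higher by 1.01 (0.24 to 1.68). Ighd had 348 CPM in ND and 2 UMIs in HFD, a log2 ratio of -2.22 (-5.26 to -0.36). With the immunoglobulin-rich barcodes of the B gate counted in, the ratio of Igkc became 3.32 and that of Ighm 2.54, since these were 6 of the 12 HFD cells but 18 of the 514 in ND. Cell-to-cell variation is not part of these intervals.

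Within immunoglobulin-rich barcodes, 3 of 8 genes tested differed at least 2-fold between diets in either direction (Iglc1, Iglc3 and Mzb1), where 34.2% of 1513 genes did. Igkc had 206767 CPM in ND and 310318 in HFD, Ighm 84910 and 94717, Igha 55990 and 95220, and Jchain 32757 and 43298. The IgA share was 9 of 29 (31.0%, 15.3 to 50.8%) and 6 of 15 (40.0%, 16.3 to 67.7%), with overlapping intervals. Of the plasma cell and secretory list, 4 of 15 differed by at least 2-fold (Fkbp11, Creld2, Hsp90b1 and Eaf2), with Hsp90b1 at 3098 CPM in ND and 1414 in HFD.

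The genes whose pattern was most like those described were found by Pearson's r of log2 (CPM + 10) over 15 points, each a gate of 1 library with at least 10 cells, so points share a library and its depth, and B gates included the immunoglobulin-rich barcodes. For Igkc these were Cacna1e (0.95), Oosp1 (0.95), Fcrl5 (0.94), Cd79a (0.94) and A530040E14Rik (0.94). For Jchain they were Oosp1 (0.97), Cacna1e (0.96), Gm30211 (0.96), AC125149.3 (0.95) and Derl3 (0.95), and for Mzb1 Cacna1e (0.99), Fcrl5 (0.98), Cd79a (0.98), AC125149.3 (0.98) and A530040E14Rik (0.98). Cd79a was a marker of the B gate, and Oosp1 and Fcrl5 had 57 and 53 UMIs in all.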

How the data were processed

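Single-cell RNA libraries of dissociated aortic arch, 1 per diet, were made by the authors with a droplet method and sequenced. The authors counted UMIs per gene and barcode with Cell Ranger (matrix header, version 3.0.1) on build mm10 per the labels, and deposited raw counts without normalization. No source used here gives the chemistry or the gene annotation. Counts of both libraries joined were not used.

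Barcodes were kept with at least 200 genes, 200 UMIs and at most 30% mitochondrial UMIs, leaving 5416 and 2739, the numbers of cells the labels state. Gates used 10 lists of 5 markers. A barcode passing several gates was set apart as mixed, which stood in for a doublet caller. The UMIs of a group were summed and divided by the total (CPM). Intervals are exact at 95%: Poisson, Clopper-Pearson, and conditional binomial for ratios. They cover counting error only. A gene was compared with at least 20 UMIs over both sums, and "2-fold" describes 2 libraries. Thinning to 1000 UMIs used a fixed seed. Steps were tested on simulated data. Alternatives changed the mitochondrial limit, gate strictness, mixed barcodes, deep barcodes, thinning, the CPM total and the immunoglobulin-rich barcodes.

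The 9 genes and all lists were chosen with earlier results of these data known. Named were the 9 genes, the switched heavy chain genes, the 3 variable genes of each kind with the most UMIs in ND B cells, at most 4 genes per list by UMIs, and the 5 most alike genes. Further genes of the plasma cell and secretory list and of the mature B list were named after their values had been seen. Python 3.11.15, numpy 2.4.6, scipy 1.17.1, pandas 2.3.3 and Biopython were used. Some genes of the lists are not reported here by name.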

Additional observations from a re-analysis of the deposited data

Results flagged for a closer look

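Among barcodes that the filter removed, 22 of 4818 in ND (0.457%, exact interval 0.286 to 0.691%) and 4 of 11486 in HFD (0.0348%, 0.00949 to 0.0891%) had at least 5% of their UMIs on immunoglobulin genes. They are a signal among barcodes that the report's comparisons leave out, although the setting without a mitochondrial limit takes in some of them. Their median was 869 UMIs in ND (660 to 2341) and 1471 in HFD (1330 to 1576). Ighm was the main heavy chain in 15 and Igha in 5 of the 22, and in 3 and 1 of the 4. Removed barcodes that were neither immunoglobulin-rich nor in the B gate had Igkc at 88.6 CPM in ND and 33.5 in HFD.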

How the results depend on the processing

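Of 110 values (10 results under 11 alternatives), 54 stayed within the interval or within 1.5 times the reported count, 52 moved and 4 changed sign. The values set beside the alternatives here keep immunoglobulin-rich barcodes in their gates. No paired analysis was possible because there is 1 library per diet. The cause of each move was not tested.

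The ND share of B cells (9.49%) was 2.96% with at most 10% mitochondrial UMIs, 7.70% at 20%, 7.71% without a limit, 10.3% with mixed barcodes assigned and 7.32% after thinning. The HFD share (0.438%) was 1.79% at 10%, 0.824% without a limit and 0.219% with immunoglobulin-rich barcodes left out. The log2 ratio of HFD over ND of Igkc in all kept cells (-0.24) changed sign at 20% (0.26) and without barcodes over 3 times the median depth (0.15), and was -0.015 at 10%, -1.07 without a limit, -0.15 with the reduced CPM total (no mitochondrial, haemoglobin, ribosomal or immunoglobulin genes) and -0.010 thinned.

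In B cells, that of Igkc (3.32) changed sign when thinned (-1.24). It was 1.66 at 10%, 1.96 without a limit, 3.43 with the looser and 1.44 with the stricter gate, 3.198 with mixed barcodes assigned, 3.66 without deep barcodes, 3.92 with the reduced total and 0.047 without immunoglobulin-rich barcodes. That of Ighm (2.54) changed sign with the stricter gate (-0.66). In the same order of the other settings it was 0.40, 1.23, 3.07 (looser), 2.39, 2.69, 3.14 and 0.94, and 0.078 when thinned. In endothelial cells Igkc (-3.05) was -2.52 at 10%, -2.77 at 20% and -2.77 without a limit, -1.38 thinned and -0.064 without immunoglobulin-rich barcodes, whether or not these stayed in the B gate.

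Igkc in B over endothelial cells (6.86) was 12.78 at 10%, 7.04 at 20%, 5.52 with the stricter gate, 6.41 with mixed barcodes assigned, 6.28 without deep barcodes, 7.42 with the reduced total, 6.75 thinned, 9.85 with immunoglobulin-rich barcodes left only in the B gate and 7.70 without any. The lambda share (13.8%) was 14.2% at 10%, 13.5% at 20%, 13.3% with the stricter gate, 13.5% with mixed barcodes assigned, 7.71% without deep barcodes, 15.4% thinned and 20.9% without immunoglobulin-rich barcodes. These barcodes numbered 19 in place of 29 in ND without deep barcodes, and 2 in place of 15 in HFD at 10%. The limit of 20% and the removal of immunoglobulin-rich barcodes from the B gate were chosen after seeing the data. HFD values in the B gate rest on 12 barcodes with the reported settings, 2 at 10% and 82 without a limit. Without immunoglobulin-rich barcodes they rest on 6 cells. Leaving out the cell with the most Igkc UMIs in the endothelial gate of each library, also chosen after seeing the data and with immunoglobulin-rich barcodes out, gave a ratio of -0.999 there.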
